A study of Mus musculus with 26 samples.

Results

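RNA-seq of CD8+ T cells was examined for 10 genes of the co-inhibitory receptor system: Pdcd1, Tigit, Lag3, Ctla4, Havcr2, Cd160, Cd244a, Btla, Cd200 and Pdcd1lg2. The genes were listed by name, with earlier results of these data known, and they are 10 of the 35865 genes with a mouse annotation in the data. Of these 10, Cd200 and Pdcd1lg2 encode ligands rather than receptors. All 10 passed the filter on low counts that left 15449 genes for testing.

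The cells were TCR Tg101 cells, CD8+ T cells that carry a transgenic T cell receptor taken from 1 clone specific for C1498, a transplantable leukemia of C57BL/6 mice, and the Tg101 mice lacked Rag2 (Rag2-/-), so that no other receptor chains were rearranged. Labelled with a dye that is diluted at each division, the cells were transferred to mice and C1498 was given into the vein 1 day later. The strain of the recipients is not stated for these samples. The labels give all samples as wild type C57BL/6 at 6 weeks of age. Cells were sorted from spleen or liver for low-input RNA-seq. The control group had 3 spleen libraries from mice without leukemia, namely 2 of naive cells at day 0 and 1 at day 18. Leukemia-bearing mice gave early cells at day 7 (2 spleen and 2 liver libraries), mid cells (1 spleen library at day 14, 2 liver libraries at day 13 and 1 at day 14), late cells (2 liver libraries, day 16 and day 18) and undivided cells, which had kept the dye (1 spleen library, day 18). One further day 0 library was primed with oligo-dT and entered no test. Sample titles fall into 2 series, TG (day 0 control 1, mid liver 1 and late liver 1) and XC (the other 11 low-input libraries), which was taken as the sequencing batch. Nothing in the labels says how many mice a library holds, so p-values measure only the spread between these libraries.

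Co-inhibitory receptors are surface proteins that dampen T cell activation when they meet their ligands, and many of them recruit phosphatases through motifs in their cytoplasmic tails. They appear after T cell activation and are held at high levels where antigen persists, as in chronic infection and in tumors. PD-1 (Pdcd1) binds PD-L1 and PD-L2, CTLA-4 competes with CD28 for B7 molecules, TIGIT binds the poliovirus receptor family, LAG-3 binds MHC class II and FGL1, TIM-3 (Havcr2) has galectin-9 and CEACAM1 among its reported ligands, BTLA and CD160 share the ligand HVEM, and 2B4 (Cd244a) binds CD48.

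Promoter windows (250 bases before the start site, RefSeq, GRCm38.p6) were found for 9 of the 10 genes, in 10 windows, since Cd160 has 2. The windows printed here are those of Pdcd1, the gene with the largest change, of Btla, a gene with a small change, of both Cd160 starts, whose shares are compared further on, and of Havcr2 and Cd244a, which moved together across libraries. Each reads 5′ to 3′ on the strand of its gene, and capitals mark matches to the NFAT core (GGAAA) or to AP-1 (TGANTCA) on either strand. Pdcd1 lies on chromosome 1 (chr1:94052554-94052803, reverse strand), Btla on chromosome 16 (chr16:45224087-45224336, forward), Cd160 on chromosome 3 (proximal start chr3:96814522-96814771, distal start chr3:96829352-96829601, both reverse), Havcr2 on chromosome 11 (chr11:46454681-46454930, forward) and Cd244a on chromosome 1 (chr1:171558943-171559192, forward).
Pdcd1: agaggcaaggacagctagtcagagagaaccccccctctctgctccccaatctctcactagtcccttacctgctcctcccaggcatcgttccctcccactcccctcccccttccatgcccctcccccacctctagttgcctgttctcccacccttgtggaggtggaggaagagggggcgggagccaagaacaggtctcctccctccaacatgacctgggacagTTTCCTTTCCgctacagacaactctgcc
Btla: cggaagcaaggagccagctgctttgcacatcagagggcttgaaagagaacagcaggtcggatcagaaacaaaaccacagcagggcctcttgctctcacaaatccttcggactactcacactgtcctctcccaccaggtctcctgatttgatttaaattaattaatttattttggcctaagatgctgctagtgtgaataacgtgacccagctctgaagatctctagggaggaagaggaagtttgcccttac
Cd160 proximal: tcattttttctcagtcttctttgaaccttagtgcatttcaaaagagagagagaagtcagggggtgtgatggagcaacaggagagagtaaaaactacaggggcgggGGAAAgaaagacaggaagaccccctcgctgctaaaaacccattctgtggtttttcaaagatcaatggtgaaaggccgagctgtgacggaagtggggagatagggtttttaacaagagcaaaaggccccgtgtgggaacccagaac
Cd160 distal: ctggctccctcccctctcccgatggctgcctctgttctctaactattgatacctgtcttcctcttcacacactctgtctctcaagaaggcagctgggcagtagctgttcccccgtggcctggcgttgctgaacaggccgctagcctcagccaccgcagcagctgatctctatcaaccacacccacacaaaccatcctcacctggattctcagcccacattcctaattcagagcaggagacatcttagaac
Havcr2: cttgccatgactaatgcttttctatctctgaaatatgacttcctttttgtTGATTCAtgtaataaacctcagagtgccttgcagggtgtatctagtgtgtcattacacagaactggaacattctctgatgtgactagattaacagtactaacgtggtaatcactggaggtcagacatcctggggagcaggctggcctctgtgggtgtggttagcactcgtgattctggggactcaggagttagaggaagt
Cd244a: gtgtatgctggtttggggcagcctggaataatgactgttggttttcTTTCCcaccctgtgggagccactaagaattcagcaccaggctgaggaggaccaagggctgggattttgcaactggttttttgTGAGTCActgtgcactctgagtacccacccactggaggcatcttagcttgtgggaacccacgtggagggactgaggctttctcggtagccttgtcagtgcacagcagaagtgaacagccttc

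The NFAT core was present in 6 of the 10 windows, against 55.6% of all 32851 promoter windows. The 2 matches in the Pdcd1 window lie side by side near the start site. AP-1 letters were present in 2 of the 10 windows, those of Havcr2 and Cd244a, against 6.75% of all windows. RUNX letters (TGTGGT) were in 5 of the 10 against 14.1%, and neither the NR4A motif AAAGGTCA (1.34% of all windows) nor TATAAA (12.4%) was in any of them. Both strands were searched, none of the 5 motifs contains another, and a match is only a description of the window.

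The 14 low-input libraries held between 22918996 and 71358287 estimated counts. Levels are given as CPM, counts scaled to the library size corrected by TMM. Defining markers of CD8 T cells were high in every library, with Cd8b1 between 724.5 and 2033 CPM, and Cd4 was at most 5.35 CPM. Macrophage and erythroid markers were highest in the day 0 controls. The 8 macrophage or monocyte markers summed to 537 and 109 CPM there and to 4.96 to 51.1 CPM in the other 12 libraries, and 4 erythroid markers summed to 2504 and 10090 CPM against at most 104 CPM. The 6 hepatocyte markers summed to 65.9 and 290.2 CPM in late liver, to 2.63 to 176 CPM in mid liver, to 1.82 and 7.49 CPM in early liver and to at most 0.325 CPM in the controls. The 3 markers of CD4 and regulatory T cells summed to 8.10 and 11.2 CPM in late liver, 7.60 to 9.58 CPM in mid liver and 2.57 to 6.34 CPM in the controls. Cd4 itself was at 5.35, 2.64 and 0.130 CPM in the controls and at 0.417 to 0.987 CPM in mid and late liver. Cd40lg was at 0.375 to 2.18 CPM in the controls and at 4.64 to 8.02 CPM in mid and late liver. The 6 B cell markers, mostly Ighm, summed to 354 to 787 CPM over all libraries. The part of these cells in the results was not tested. The 2 early liver libraries were unlike each other, and results that rest on them are given with and without each. In such sorted bulk samples, fewer cells of a type and less RNA per cell cannot be told apart.

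Late liver cells had higher levels of these genes than control cells. All controls were from spleen, and no liver library came from mice without leukemia. Tissue and leukemia therefore cannot be told apart in any liver comparison with control. In late liver, 7 of the 10 genes were significantly higher than in control (Pdcd1, Tigit, Lag3, Ctla4, Cd160, Cd200 and Pdcd1lg2) and none was lower (edgeR quasi-likelihood test, p adjusted over all genes tested by the Benjamini-Hochberg method). Among all genes tested, 19.9% were called higher in this comparison. The median log2 fold change of the 10 genes was 4.86, against -0.04 over all genes. Mid liver cells also had 7 genes called higher, with Btla in place of Ctla4, where 17.5% of all genes were called higher, and the median log2 fold change was 3.68 against -0.07. In TMM-scaled CPM, both late liver libraries lay above every control library for 10 of 10 genes (27.8% of all genes did so). The 3 mid liver libraries did so for 9 of 10 (20.9% of all genes), with Havcr2 the exception. In TPM, Btla overlapped the controls in both late and mid liver. These 2 comparisons share the control libraries.

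How many of the genes passed the test depended on single libraries, and so did the calls over all genes in either direction. Without late liver 2 the count in late liver was 0 (0% of all genes), without late liver 1 it was 3 (4.52%) and without day 0 control 1 it was 3 (9.16%). In mid liver it was 0 without day 0 control 1 (0.0331% of all genes), without day 0 control 2 (0%), without mid liver 1 (0.0198%) and without mid liver 3 (0.209%). Within the XC series alone no gene of the 10 passed in late liver (0.055% of all genes) or mid liver (0%), although every log2 fold change of the 10 stayed positive. With the day 18 library as the only control the count was 0 in both (0% of all genes), and with the day 0 libraries as the only controls it was 6 in late liver (28.4%) and 6 in mid liver (22.2%).

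**Figure D1:**
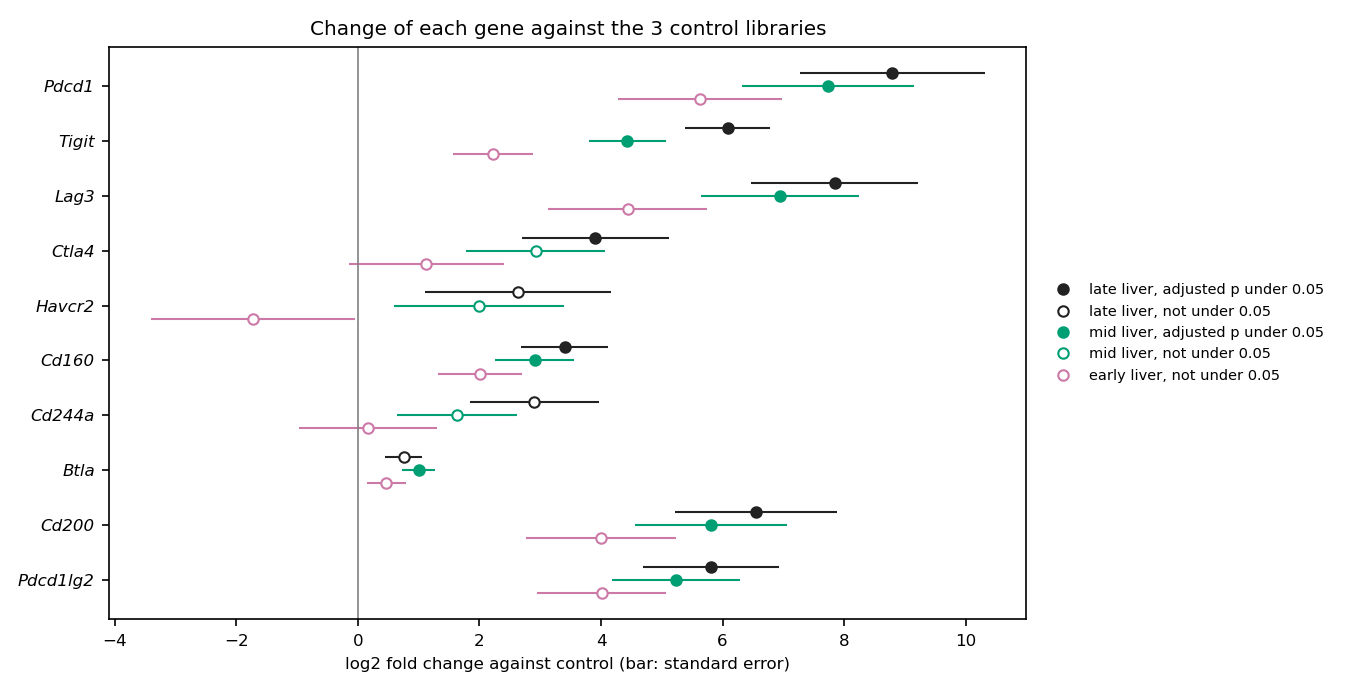
The plot shows log2 fold change against the 3 control libraries (horizontal axis) for each gene, with points for late, mid and early liver, bars for the standard error and filled points for an edgeR adjusted p under 0.05. Pdcd1 had the largest value in late liver (8.79) and Btla the smallest (0.75), and no early liver point is filled.

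Pdcd1 encodes PD-1, and Pdcd1lg2 encodes its ligand PD-L2. In the controls Pdcd1 was at 1.12 and 1.41 CPM at day 0 and at 2.44 CPM at day 18. In the 3 mid liver libraries it was at 402, 235 and 414 CPM, and in late liver at 976 and 527 CPM. The lowest mid liver library stood far above the highest control, and the late liver libraries lay above all mid liver libraries. The change from control to late liver was 8.79 on the log2 scale (SE 1.52, edgeR adjusted p = 0.00729) and to mid liver 7.73 (SE 1.41, edgeR adjusted p = 0.0141). Within the TG series, late liver stood 868-fold above the day 0 control, and within XC it stood 375-fold above the day 0 and 216-fold above the day 18 control. Pdcd1lg2 was at 0.584, 0.528 and 0.942 CPM in the controls, at 36.0, 21.7 and 21.2 CPM in mid liver and at 50.1 and 31.9 CPM in late liver. Its change was 5.81 in late liver (SE 1.12, edgeR adjusted p = 0.00907) and 5.24 in mid liver. Per length, the ligand lay far below its receptor in late liver, at 16.0 and 17.3 TPM against 259 and 243 TPM.

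**Figure D2:**
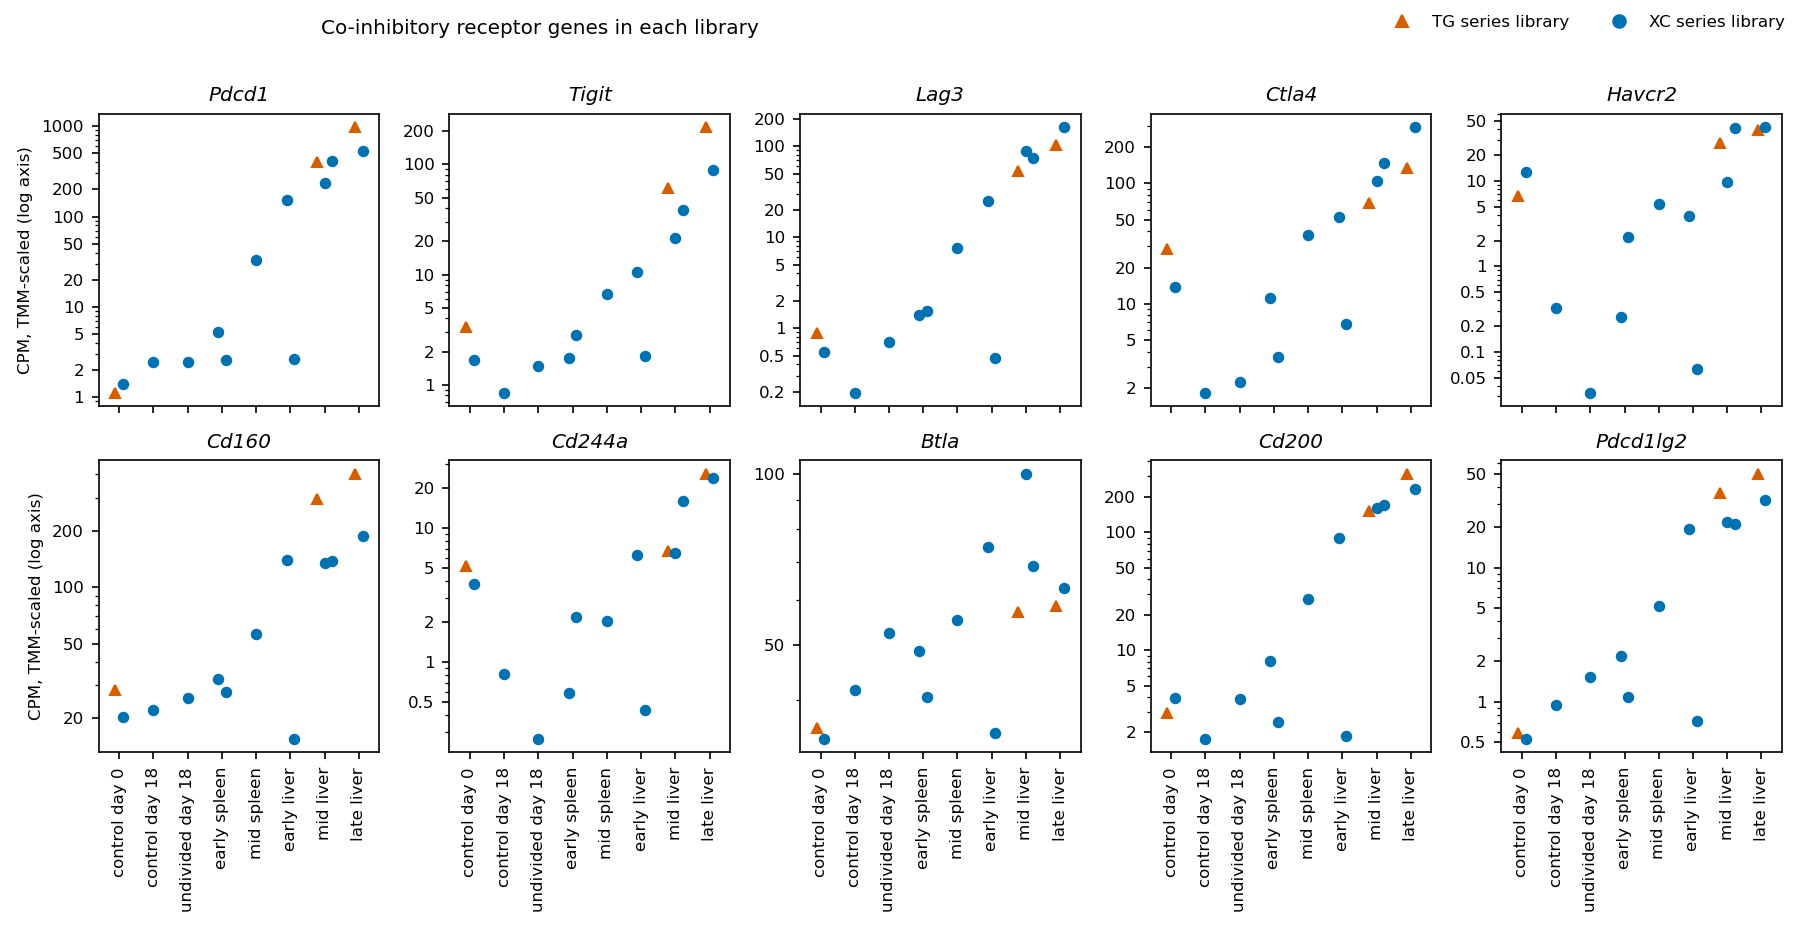
Each panel plots CPM scaled by TMM (log axis) of 1 gene in each of the 14 libraries by group, with triangles for TG and circles for XC libraries. Pdcd1 runs from 1.12 CPM in a day 0 control to 976 CPM in a late liver library, while Btla stays between 34.15 and 100.1 CPM.

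Lag3 and Tigit, receptors for MHC class II and for the poliovirus receptor family, rose in both liver comparisons. Lag3 was nearly silent in the controls (0.884, 0.547 and 0.195 CPM, 59 counts at most). It was at 53.9, 88.0 and 73.8 CPM in mid liver and at 104 and 162 CPM in late liver, and again the 3 groups did not overlap in CPM. In TPM, which is not TMM-scaled, late liver 1 (28.6 TPM) lay below mid liver 2 and 3 (46.7 and 38.2 TPM). The late change was 7.84 (SE 1.37, edgeR adjusted p = 0.00744) and the mid change 6.95. Tigit was at 3.31 and 1.68 CPM in the day 0 controls and at 0.844 CPM in the day 18 control. It was at 61.2, 21.3 and 38.9 CPM in mid liver and at 218 and 88.2 CPM in late liver. The late change of Tigit was 6.09 (SE 0.70, edgeR adjusted p = 0.00323), and the mid change was 4.43.

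Cd200, a surface glycoprotein that binds the inhibitory receptor CD200R1, was low in the controls and high in liver. Its controls lay at 2.92, 3.93 and 1.75 CPM, mid liver at 151, 163 and 172 CPM and late liver at 316 and 234 CPM. Cd200 rose by 6.55 in late liver (SE 1.33, edgeR adjusted p = 0.0111) and by 5.81 in mid liver. The 3 mid liver libraries were close to each other, at 162 CPM ± 10.6 (SD, n = 3), and both late libraries lay above them.

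Ctla4, a CD28 family receptor, was present in the day 0 control libraries, and Btla was present in every control library. The part of other cells in the day 0 level of Ctla4 was not tested. Ctla4 was at 28.5 and 13.8 CPM in the day 0 controls but at 1.82 CPM in the day 18 control. In mid liver it was at 68.2, 105 and 149 CPM and in late liver at 134 and 294 CPM, so that the late range overlapped the mid range. The late change was 3.91 (SE 1.20, edgeR adjusted p = 0.0393), and it was lost when any of 7 libraries was left out. The mid change of 2.93 did not pass (SE 1.14, edgeR adjusted p = 0.0868). Btla was expressed in every library. Its controls lay at 35.7, 34.15 and 41.7 CPM, mid liver at 57.2, 100.1 and 68.8 CPM and late liver at 58.6 and 63.1 CPM. Btla rose by 1.002 in mid liver (SE 0.27, edgeR adjusted p = 0.0240), a call lost when any of 6 libraries was left out, and was 0.75 higher in late liver (SE 0.30, edgeR adjusted p = 0.0756). On the TPM scale, which is not TMM-scaled, Btla in late liver (9.90 and 19.15 TPM) overlapped the controls (9.19 to 18.8 TPM). Mid liver overlapped them too, with mid liver 1 at 11.7 TPM.

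Havcr2 and Cd244a were higher in late liver than in every control but did not pass the test. Havcr2, which encodes TIM-3, was at 39.6 and 42.4 CPM in late liver and at 27.3, 9.72 and 41.5 CPM in mid liver. Its controls were far apart, at 6.59 and 12.8 CPM at day 0 and at 0.325 CPM, 10 counts, at day 18. The late change was 2.63 (SE 1.52, edgeR adjusted p = 0.205). Cd244a, which encodes 2B4 of the SLAM family, was at 25.5 and 23.7 CPM in late liver and at 6.74, 6.57 and 15.9 CPM in mid liver. In the controls it was at 5.18 and 3.79 CPM at day 0 and at 0.812 CPM at day 18. The late change was 2.91 (SE 1.06, edgeR adjusted p = 0.0622).

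The day 0 controls stood above the day 18 control for these genes by 20.3-fold and 39.4-fold for Havcr2, by 6.39-fold and 4.67-fold for Cd244a and by 15.7-fold and 7.57-fold for Ctla4. The same 2 libraries had the highest macrophage marker sums, with Csf1r at 185 and 31.5 CPM against 3.64 CPM at day 18 and Tyrobp, a signalling adaptor of myeloid and NK cells, at 152 and 16.3 CPM against 0.487 CPM. Their sums of dendritic cell, NK cell and neutrophil markers were also the highest. These ran from 47.0 to 52.4, 21.8 to 156.8 and 25.2 to 158.2 CPM, against 10.2, 1.10 and 9.09 CPM at day 18. Tigit, Lag3 and Cd200 were also higher in both day 0 libraries than at day 18, by 1.67-fold to 4.54-fold. For Pdcd1, Pdcd1lg2 and Btla the day 18 control was the higher one, and for Cd160 the ratios were 1.27 and 0.908. Between the day 0 libraries, control 1 had the higher macrophage marker sum (537 against 109 CPM) and the higher Cd244a and Ctla4. Havcr2 was higher in control 2 (12.8 against 6.59 CPM). Against the day 18 control alone, late liver 2 of the same series stood 130.4-fold higher for Havcr2, 29.2-fold for Cd244a and 161.5-fold for Ctla4. The part of other cells in these differences was not tested.

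**Figure D3:**
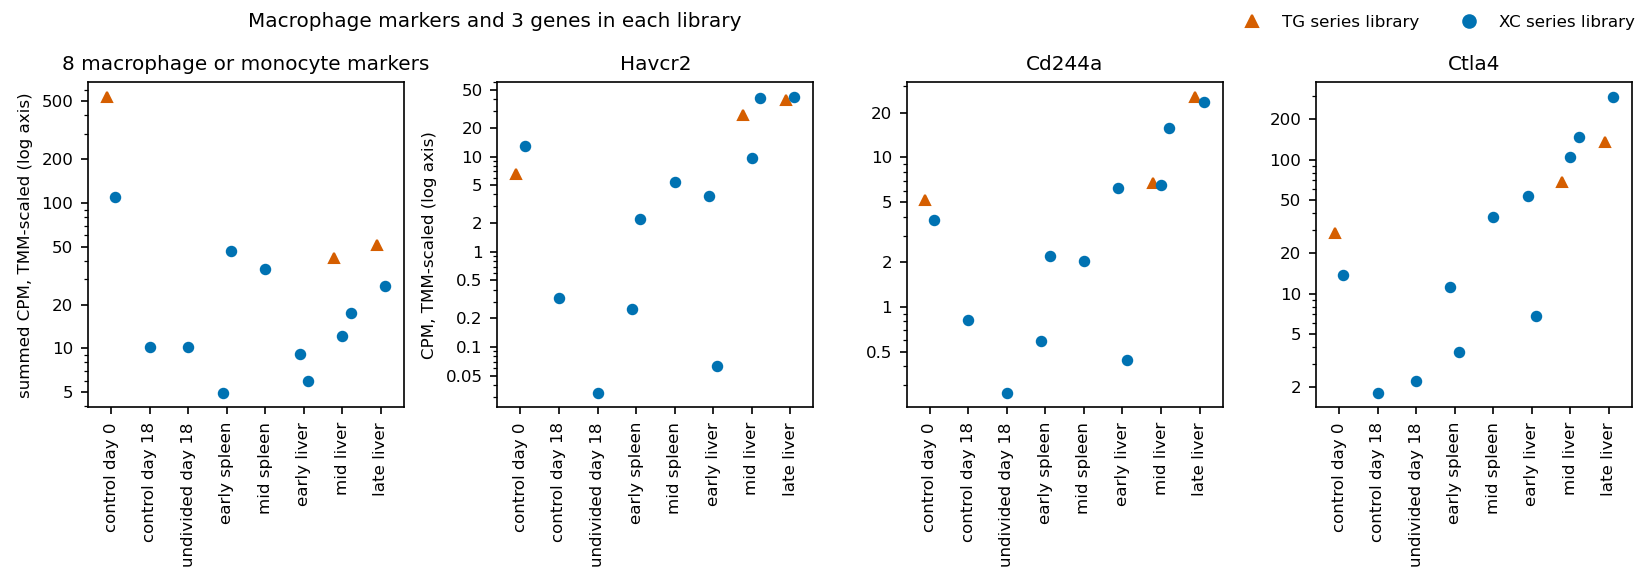
The panels plot, by library and on log axes, the summed CPM of 8 macrophage or monocyte markers and the CPM of Havcr2, Cd244a and Ctla4, with triangles for TG and circles for XC libraries. The day 0 controls have the highest marker sums (537 and 109 CPM), and they lie above the day 18 control in all 4 panels.

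Cd160 encodes a receptor of the immunoglobulin family that binds HVEM. It was already present in the controls, at 28.3, 20.2 and 22.3 CPM. Mid liver libraries were at 295, 135 and 138 CPM and late liver libraries at 403 and 187 CPM. Cd160 rose by 3.40 in late liver (SE 0.71, edgeR adjusted p = 0.0111) and by 2.91 in mid liver. The TG library was the highest in both groups.

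Cd160 transcripts begin at a proximal or at a distal start, the windows of which are printed above. Transcripts of the proximal start rose most. They were at 23.5, 17.0 and 18.5 CPM in the controls, at 278, 123 and 128 CPM in mid liver and at 388 and 175 CPM in late liver. Distal transcripts went from 4.83, 3.26 and 3.80 CPM in the controls to 17.5, 11.7 and 9.44 CPM in mid liver and to 15.1 and 12.3 CPM in late liver. The distal share of Cd160 counts was therefore 17.1, 16.1 and 17.1% in the controls, against 5.92, 8.65 and 6.85% in mid liver and 3.75 and 6.58% in late liver. Counting error was small beside this gap, since the Wilson 95% interval ran from 15.4 to 18.8% in day 0 control 1 and from 3.49 to 4.04% in late liver 1, and covers counting error only.

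The 5 mid and late liver libraries had a mean share of 6.35% ± 1.77 (SD, n = 5), against 16.7% ± 0.549 (SD, n = 3) in the controls, a difference of -10.4 percentage points. A two-sided exact permutation test gave p = 0.0357, the smallest that 5 against 3 libraries allow. This comparison was made after the shares had been seen. Without any 1 library the test cannot pass 0.05, and the difference lay between -11.0 and -9.74. The groups separated within each series as well. Early spleen lay above the controls (19.0 and 18.8%), mid spleen had 12.6%, undivided cells 14.1%, and the early liver libraries 8.37 and 14.1%. Distal transcripts also carry a last exon that extends further downstream, so the start and the end of the transcript cannot be told apart in these estimates.

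**Figure D4:**
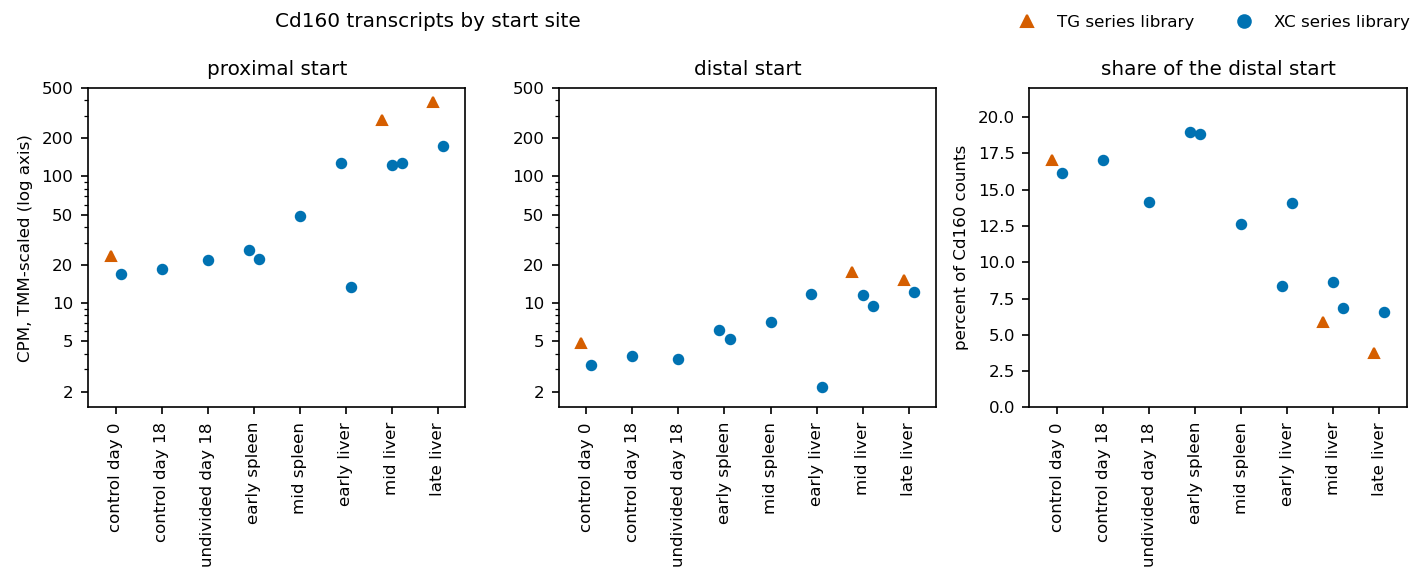
By library, the panels plot the CPM of Cd160 transcripts with the proximal and with the distal start (log axes) and the distal share in percent of Cd160 counts, with triangles for TG and circles for XC libraries. Proximal transcripts reach 388 CPM and distal ones 17.5 CPM, and the share is at most 8.65% in mid and late liver against at least 16.1% in the controls.

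For Ctla4, the annotation holds a form that skips the exon coding for the membrane-spanning segment. Its junctions are printed to show what separates the forms, with the joined exon in capitals, and both begin at the exon that ends at base 60912770 of chromosome 1 (GRCm38, forward strand).
Ctla4 full length: agatttatgtcattgATCCAGAACCATGCC
Ctla4 skipping form: agatttatgtcattgCTAAAGAAAAGAAGT
The first joins the exon of 110 bases that starts at 60913219, and the second joins the exon that starts at 60914613. The skipping form made up 0.593, 1.56 and 1.87% of Ctla4 counts in the TG libraries (day 0 control, mid and late liver) and 1.74 to 11.6% in the 11 XC libraries, with a median of 9.02%. All XC libraries but early spleen 2, which had 1.74% of only 100 Ctla4 counts, lay above all TG libraries. Within XC the late library had 8.01% and the day 0 and day 18 controls 8.51 and 9.16%. The series and the share moved together, and no test was made. The Btla transcript ENSMUST00000063654.5 was split in the same way, with 1.42 to 3.36% of Btla counts in TG and 12.6 to 19.8% in XC libraries.

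Early cells showed how the levels differed by tissue and library at day 7. In early liver 1, 9 of the 10 genes stood above every control library (30.8% of all genes did so), and in early liver 2 only Pdcd1 did (23.7% of all genes). Pdcd1 was at 154 and 2.63 CPM in these 2 libraries, a 58.4-fold gap, Lag3 at 25.0 and 0.470 CPM and Cd200 at 88.9 and 1.88 CPM. Cd160 was at 139.7 and 15.5 CPM, Pdcd1lg2 at 19.3 and 0.721 CPM and Tigit at 10.7 and 1.82 CPM. Early liver 1 thus came close to mid liver for Cd160 and Pdcd1lg2, while early liver 2 lay within or below the control range for the other 9 genes. No gene passed the adjusted test in early liver against control (0% of all genes), and 6 were higher at an unadjusted p under 0.05 (7.57% of all genes). DESeq2 called 6 of the 10 (2.64% of all genes). Without early liver 2 edgeR called 7 (12.5%), and without early liver 1 it called 0 (0.00658%) and none was under an unadjusted p of 0.05.

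Early spleen libraries stayed near the controls. Pdcd1 was at 5.24 and 2.62 CPM, Lag3 at 1.40 and 1.56 CPM and Pdcd1lg2 at 2.19 and 1.09 CPM, and for these 3 genes both libraries lay above every control (8.08% of all genes did so). Ctla4 was at 11.2 and 3.64 CPM and Havcr2 at 0.252 and 2.22 CPM, inside or below the control range. No gene passed the adjusted test (0% of all genes), none was under an unadjusted p of 0.05 in edgeR (6.28% of all genes), and DESeq2 called 0 (0.0906%). Set directly against early spleen, early liver had no gene past the adjusted test (0% of all genes). Only Pdcd1 was higher at an unadjusted p (3.42% of all genes were), with a log2 difference of 4.31 (SE 1.48, edgeR unadjusted p = 0.01945, adjusted p = 0.545), which became -0.59 without early liver 1. DESeq2 called 0 there too (0.382% of all genes), and edgeR called 6 without early liver 2 (6.36%) and 0 without early liver 1 (0.00658%).

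At day 14 the single mid spleen library held intermediate levels. Pdcd1 was at 32.8 CPM, Cd200 at 27.1, Ctla4 at 37.1, Cd160 at 56.2, Lag3 at 7.61, Tigit at 6.66 and Pdcd1lg2 at 5.22 CPM. For 8 of 10 genes it stood above every control library (28.6% of all genes did so), with Havcr2 at 5.35 and Cd244a at 2.01 CPM inside the control range. All 3 mid liver libraries were higher than mid spleen in TMM-scaled CPM for 10 of 10 genes (28.8% of all genes were). In TPM, mid liver 1 lay below mid spleen for Btla (11.7 against 20.6) and Ctla4 (23.8 against 24.1). With a spread borrowed from the other groups, edgeR called none of the 10 between mid spleen and control (0.00647% of all genes in either direction, 1 gene), and 5 were higher at an unadjusted p (4.18%). Between mid liver and mid spleen it called none (0.00647%), and Tigit alone was higher at an unadjusted p (2.23%), by 2.11 (SE 0.89, edgeR unadjusted p = 0.0433, adjusted p = 0.711). DESeq2 called 0 of the 10 in both, against 0.0777% of all genes for mid spleen and control and 0.11% for mid liver and mid spleen. When either early liver library was left out, edgeR called 6 of the 10 between mid spleen and control (1.38% of all genes).

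Late liver libraries lay above all mid liver libraries in TMM-scaled CPM for 5 of 10 genes, Pdcd1, Tigit, Lag3, Cd244a and Cd200, where 8.03% of all genes did so. In TPM, Lag3 and Cd244a overlapped. Late liver 1 had 28.6 TPM of Lag3 and 5.41 TPM of Cd244a, against up to 46.7 and 5.96 TPM in mid liver. Tigit had the largest difference, 1.66 on the log2 scale (SE 0.61, edgeR unadjusted p = 0.0239, adjusted p = 0.969), and Btla alone had a negative one, -0.25. No gene passed the adjusted test with edgeR (0% of all genes) or with DESeq2 (0.343%), and 1 was higher at an unadjusted p (2.55%). Within the TG series, late liver stood above mid liver 3.56-fold for Tigit, 2.43-fold for Pdcd1, 3.78-fold for Cd244a and 1.02-fold for Btla.

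Undivided cells from the spleen of leukemia-bearing mice at day 18 were close to the day 18 control for some genes and not for others. Their comparison with late liver, given below, is therefore also one of spleen with liver. Pdcd1 was at 2.45 CPM in undivided cells and at 2.44 CPM in that control, Ctla4 at 2.22 and 1.82 CPM, Tigit at 1.49 and 0.844 CPM and Cd160 at 25.7 and 22.3 CPM. Lag3 was 3.57-fold (21 counts against 6) and Cd200 2.21-fold the day 18 control, and both lay inside the range of all controls. Havcr2 had 1 count in undivided cells against 10 in that control, and Cd244a had 8 counts against 25. A set of 3 genes, Pdcd1, Btla and Pdcd1lg2, were above every control (21.4% of all genes were) and 2, Havcr2 and Cd244a, were below (18.7%). With 1 library, edgeR called none against control, adjusted (0% of all genes) or unadjusted (1.12%), and DESeq2 called 0 (0% of all genes). Late liver against undivided cells, both from leukemia-bearing mice, gave 9 of 10 genes higher at an unadjusted p (13.3% of all genes), all but Btla. None passed the adjusted edgeR test (0% of all genes), while DESeq2 called 9 (12.7%) and edgeR called 7 when either early liver library was left out (13.4%).

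Per length, in TPM, the summed level of the 10 genes was far higher in mid and late liver than in the controls. Their summed level was 49.2, 49.6 and 44.8 TPM in the controls and 52.8 TPM in undivided cells. It was 75.2 and 59.8 TPM in early spleen and 162 TPM in mid spleen. In liver it was 426 and 42.5 TPM early, 511, 561 and 650 TPM at mid and 870 and 994 TPM late. The order of the genes changed too. In the controls Cd160 came first, with 37.4, 32.3 and 43.7% of the summed level, and Pdcd1 gave 0.916, 1.41 and 3.03%. In late liver Pdcd1 came first with 29.8 and 24.5%, followed by Cd200 with 23.1% in both libraries, and Btla gave 1.14 and 1.93%. Havcr2 and Cd244a were the lowest of the 10 in both late libraries, at 7.52 and 13.2 TPM and at 5.41 and 8.51 TPM.

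**Figure D5:**
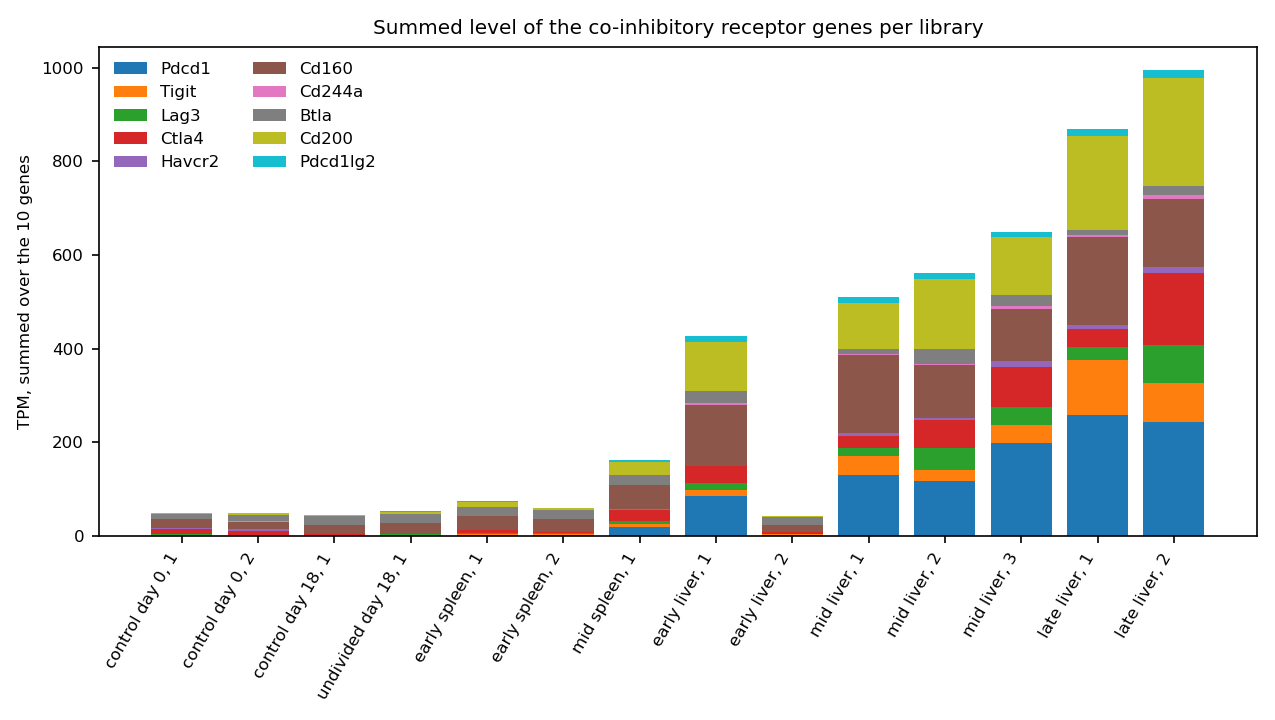
Stacked bars show the TPM of each of the 10 genes (vertical axis, summed), over all annotated transcripts of a gene, in each of the 14 libraries. The bars grow from 44.8 to 49.6 TPM in the controls to 870 and 994 TPM in late liver, and early liver 1 is at 426 TPM while early liver 2 is at 42.5 TPM.

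Across the 14 libraries the 10 genes varied together to different degrees. Pearson's r of log2 CPM over the 45 pairs ran from 0.41 to 0.99 with a median of 0.85, and without early liver 1 the median was 0.86. Pdcd1 and Pdcd1lg2 had the highest r (0.99), followed by Pdcd1 and Cd200 (0.98), and Havcr2 and Cd244a formed a pair of their own with 0.96. Btla and Havcr2 had the lowest (0.41). The libraries share their groups and series, so these values describe the data only.

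Among the genes outside the set whose log2 CPM followed Pdcd1 most closely were Izumo1r (0.98), which encodes folate receptor 4, Pkm (0.98), a glycolytic enzyme, St13 and Plscr1. Izumo1r also led for Pdcd1lg2 (0.99), with Psat1 and Sms after it. Lag3 was followed by Kif2c (0.98), a mitotic kinesin, Endod1 and Spag5, and Cd160 by Rilpl2 (0.99), Kpna2 and Cks1b. Bcl2a1b (0.99), an anti-apoptotic BCL2 relative, Plscr1 and Endod1 followed Cd200, and Csrp1 (0.98), Vmp1 and Cdkn2c followed Tigit. Bhlhe40 (0.97), a transcriptional repressor, came first for Ctla4, before Gabarapl1 and Srgap3. Egr3 (0.96) and Egr1 (0.95), immediate early factors induced by T cell receptor signals, came first for Btla, before Hccs. Havcr2 was followed by Lgals3 (0.96) and Lgals1, which encode galectins, and Gabarapl1, and Cd244a by Gabarapl1 (0.94), Litaf and Nfil3. These correlations are over 14 libraries and carry no test.

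The 5 lists of related genes put these changes beside the rest of the pathway. Of all genes tested, 19.9% were called higher and 14.3% lower in late liver, and 17.5% and 11.8% in mid liver, and each count stands against these shares. Among the ligands, 2 of 12 tested genes rose in late liver, no more than the share of all genes, and none fell. These were Cd200r1, the receptor of CD200, with a log2 fold change of 2.56 (SE 0.58, edgeR adjusted p = 0.0112), and Hmgb1 with 1.27 (edgeR adjusted p = 0.00551). The LAG-3 ligand Fgl1 was 2.01 higher without passing (edgeR adjusted p = 0.139), and Ceacam1 was at -1.08 (edgeR adjusted p = 0.234). Fgl1 was low throughout, at 0.332 to 0.715 CPM in the controls and at 1.94 and 2.64 CPM in late liver. The part of other cells in it was not tested. H2-Ab1, an MHC class II chain, was at -4.23 (edgeR adjusted p = 0.0814), and its CPM in the day 0 controls was 583 and 455 against 4.81 in the day 18 control. The median of this list was 0.27, and in mid liver 1 gene rose and 1, H2-Ab1, fell. Mid liver held H2-Ab1 at 16.5, 6.93 and 4.06 CPM, below the day 0 controls but not all below the day 18 control.

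The list of other inhibitory receptors had about the share of all genes called higher. Of 10 tested, 2 rose in late liver (19.9% of all genes did), Klrc1 (NKG2A) with 7.52 (SE 1.67, edgeR adjusted p = 0.0141) and Cd101 with 1.67, and Lair1, a collagen receptor, fell by 2.05 (SE 0.35, edgeR adjusted p = 0.00514). Entpd1 (CD39) was at 2.57 (edgeR adjusted p = 0.117) and Vsir (VISTA) at -0.74 (edgeR adjusted p = 0.0510), and neither passed. In mid liver 3 rose and none fell. The list had a median of 0.85 in late liver.

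Among activating partners, a list made up mostly of SLAM and CD28 family genes, 4 of 10 rose in late liver (19.9% of all genes did) and none fell. These were Slamf1 with 2.46 (SE 0.74, edgeR adjusted p = 0.0358), Icos with 2.27, Slamf6 and Cd28. Of the other SLAM genes, Slamf7 at 4.10 (edgeR adjusted p = 0.0510), Cd84 at -0.16 and Ly9 at -0.24 did not pass. Cd4 (-2.01) and Cd2 (-0.55) did not pass. In mid liver 5 rose. Of 12 signal proteins, 7 rose and none fell in late liver (19.9% of all genes rose), the largest being Sh2d2a, a T cell adaptor, with 2.10 (SE 0.40, edgeR adjusted p = 0.00721) and Ptpn11, the phosphatase SHP-2 that PD-1 recruits, with 1.74 (SE 0.20, edgeR adjusted p = 0.00294). Lck (-0.18) and Inpp5d (-0.10) did not pass, and 4 rose in mid liver (17.5% of all genes did).

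Among 14 transcription factors known to bind or regulate these genes, 7 rose and 1 fell in late liver (19.9% and 14.3% of all genes), with a median of 1.95. Irf4, induced by T cell receptor signals, had 5.43 (SE 1.22, edgeR adjusted p = 0.0144), and Nr4a2, an orphan nuclear receptor, had 4.20 (SE 0.91, edgeR adjusted p = 0.0129). Foxo1, a factor of quiescent T cells, fell by 1.69 (SE 0.37, edgeR adjusted p = 0.00965), and Tcf7 was at -0.85 without passing (edgeR adjusted p = 0.0983). In mid liver 8 rose and 1 fell. In early liver, early spleen and mid spleen against control, and in late against mid liver, no tested gene of the 5 lists passed the adjusted edgeR test.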

How the data were processed

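CD8+ T cells were sorted and sequenced as low-input RNA-seq in 14 libraries, and 1 oligo-dT primed library of day 0 cells was kept for description. Per the labels and the study's methods, reads were assigned to transcripts with kallisto on GRCm38 (mm10); versions are not given in the sources used here. The authors deposited estimated counts and TPM per transcript for 26 runs. Counts were summed over the runs of a library (11 had 2) and over the transcripts of a gene, using GENCODE vM21 names, and rounded to whole numbers. Deposited TPM values were averaged over the runs of a library, weighted by the total counts of each run. Summed over the transcripts of a gene, they served to compare genes per length. Totals ran from 22918996 to 71358287 per low-input library, and intervals cover counting error only.

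Genes that reached 10 counts in 6 or more libraries were tested with edgeR 4.0.16 (quasi-likelihood, robust, TMM, groups plus series) in 1 fit over all groups, so that single-library groups were assumed to vary like the others. SE is the log2 fold change divided by the root of F. Adjusted p-values are Benjamini-Hochberg over all tested genes, threshold 0.05. DESeq2 1.42.0, other filters and normalizations, and leaving out each library of the groups with more than 1 library were alternatives. In simulated data for late liver against control, 69.5% of genes changed by 2 on the log2 scale were called (15252 genes), and 6.08% of the calls were false. Only 200 genes were changed, in late liver alone and without a series effect. The real comparison called 5286 genes, so these shares do not give its power or error. The 10 genes and the gene lists were chosen with earlier results of these data known. Of each related list at most 4 genes were to be named, those with the 2 lowest and 2 highest log2 fold changes in late liver; others named were chosen after their values were seen. Promoter sequences are from RefSeq. One gene that met the rule for genes most like a member is not reported here.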

Additional observations from a re-analysis of the deposited data

Results flagged for a closer look

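The oligo-dT primed library of day 0 cells entered no comparison, and 4 of the 10 genes were higher in it than in every low-input control, in CPM by each library's own total, where 21% of all tested genes were. Lag3 was at 7.00 CPM (161 counts) against at most 0.908 CPM. Ctla4 was at 49.3 against at most 29.3 CPM, Btla at 51.4 against at most 45.8 CPM and Cd244a at 5.43 against at most 5.32 CPM. The library was made by another protocol and has no replicate, so protocol and level cannot be told apart.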

How the results depend on the processing

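The libraries are numbered in accession order. No paired analysis was possible because the labels give no replicate numbers that groups share. With the XC series only, 0 of the 10 genes passed in late and 0 in mid liver against control, and the same counts of 0 were found with the day 18 control only, an alternative chosen after seeing the data. Leaving out 1 library gave 0 to 9 genes in late liver, 0 to 7 in mid liver, 0 to 7 in early liver and 0 to 6 in mid spleen against control, 0 to 6 in early liver against early spleen and 0 to 7 in late liver against undivided cells. DESeq2 called 6 in early liver against control and 9 in late liver against undivided cells. With all genes of at least 1 count tested, 8 of the 10 passed in early liver (3.95% of all genes), 4 in early spleen (1.96%), 7 in mid spleen (1.93%) and 3 in undivided cells (0.677%) against control, and 7 in early liver against early spleen (3%), 9 in mid liver against mid spleen (2.31%), 3 in late against mid liver (0.992%) and 9 in late liver against undivided cells (6.77%); the cause was not tested. The early liver against early spleen difference of Pdcd1 was -0.59 without early liver 1 and 5.275 without early liver 2. The Cd160 distal share difference was -10.97 to -9.74 points without 1 library (exact permutation p = 0.0571 or 0.0952, the smallest possible) and -5.06 points as a share of TPM (exact permutation p = 0.0357). By TPM the late to control ratio was 4.88 for Havcr2, 6.06 for Cd244a and 1.06 for Btla.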
